A study of Mus musculus with 104 samples.

Results

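The genes described here are the nuclear genes for mitochondrial ribosomal proteins, chosen by name: every row whose symbol begins with Mrpl or Mrps followed by a number, which gave 76 genes of the 22593 rows of the Tet1/2 expression table and the same number of the 22565 rows used of the Kmt2b table. RNA had been measured by Smart-seq2, a full-length method for small samples, in mouse embryos. The deposited values are named FPKM (fragments per length of transcript, scaled to the fragments mapped in the library). Most columns had also been brought to 1 distribution of values within their table, as given in the processing section. The Tet1/2 table gives 1 column per library: 3 WT epiblasts and 2 Tet1-/-;Tet2-/- (DKO) epiblasts at embryonic day (E) 6.5, and 2 WT and 2 DKO heads at E8.5. The Kmt2b table gives 1 merged column per group for 3 WT and 3 Kmt2b-/- (KO) epiblasts at E6.5, 3 WT and 2 KO heads at E8.5 and 3 WT heads at E9.5, and a single column for the 1 KO head at E9.5. Heads were cut off near the neck, and the series design names matings of DBA2 males with C57BL/6N females; the background of the mutant lines is not given in the sources used here. Kmt2b encodes a histone H3 lysine methyltransferase and Tet1 and Tet2 encode enzymes that oxidize methylated cytosine.

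Mitochondria translate the few proteins encoded by their own genome, all of them core parts of the respiratory chain complexes and ATP synthase, on a ribosome of their own. Its ribosomal RNA comes from mitochondrial DNA, but all of its proteins are encoded in the nucleus, made in the cytosol and imported. Many descend from bacterial ribosomal proteins, and others were added in the mitochondrial lineage; early embryos are known for a shift in energy metabolism around and after gastrulation. Of the 76 members, 49 are proteins of the large subunit, 26 of the small subunit and 1, Mrps36, is now known as a component of the oxoglutarate dehydrogenase complex. By the same assignment, made from textbook knowledge, 47 have a bacterial homologue and 28 are mitochondria-specific. Mrps30 and Mrps18a, despite their names, sit in the large subunit.

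Mrpl34 was lower in heads and lower again in DKO heads, and Mrpl55 was lower in WT heads but not in DKO heads. Mrps6 was higher in heads and Mrpl35 lower in WT heads. The sequences before the annotated start are shown for these 4 members, which were picked by no fixed rule. Each is the 250 bases upstream, 5′ to 3′ on the gene's strand, from RefSeq on GRCm38.p6, and capitals mark the motifs found in it (CCGGAAG, the core bound by ETS factors, and the longer ZNF143 element, which begins with ACTACAA).
Mrpl34, chr8:71464676-71464925, plus strand: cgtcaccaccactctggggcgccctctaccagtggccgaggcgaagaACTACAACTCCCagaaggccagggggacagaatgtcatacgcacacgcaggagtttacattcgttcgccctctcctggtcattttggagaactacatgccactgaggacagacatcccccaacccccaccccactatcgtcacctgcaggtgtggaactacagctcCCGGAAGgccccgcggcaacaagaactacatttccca
Mrpl55, chr11:59202236-59202485, plus strand: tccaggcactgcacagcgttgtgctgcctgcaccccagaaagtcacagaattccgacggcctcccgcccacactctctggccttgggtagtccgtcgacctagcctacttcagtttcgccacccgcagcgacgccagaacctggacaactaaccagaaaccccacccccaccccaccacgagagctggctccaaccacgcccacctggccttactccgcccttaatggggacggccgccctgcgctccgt
Mrps6, chr16:92058086-92058335, plus strand: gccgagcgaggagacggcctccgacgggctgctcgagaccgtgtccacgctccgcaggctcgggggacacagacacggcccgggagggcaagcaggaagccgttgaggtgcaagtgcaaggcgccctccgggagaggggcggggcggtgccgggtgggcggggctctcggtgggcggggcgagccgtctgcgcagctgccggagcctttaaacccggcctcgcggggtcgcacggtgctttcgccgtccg
Mrpl35, chr6:71823785-71824034, minus strand: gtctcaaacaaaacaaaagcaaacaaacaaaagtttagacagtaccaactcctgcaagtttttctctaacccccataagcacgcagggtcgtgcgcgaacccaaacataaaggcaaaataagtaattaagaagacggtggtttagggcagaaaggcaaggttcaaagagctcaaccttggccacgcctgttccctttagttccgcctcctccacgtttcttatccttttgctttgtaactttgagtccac

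Over the whole window of 300 bases (250 before and 50 after the start), Mrpl34 held both motifs and Mrps6 and Mrpl55 held none of the 6 that were searched. The Mrpl35 window held the longer YY1 element, which begins with AAGATGG, at or after the start. The windows differed in composition: the Mrps6 window was 73.7% G and C with 39 CpGs, that of Mrpl55 64.7% with 24, that of Mrpl34 57.7% with 13 and that of Mrpl35 48.0% with 12.

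Promoter windows were found for 67 members. Both strands were searched and overlapping motifs counted separately. CCGGAAG was in 24 of 67 windows (35.8%), against 9.93% of all windows, 12.9% of those of protein-coding genes and 27.7% of those of genes with a mean of 10 FPKM or more. The YY1 element was in 5 (7.46%) against 0.755% of all windows and 2.63% of the well-expressed genes. The ZNF143 element was in 4 (5.97%) against 1.1% and 3.54%. The palindrome beginning with GCGCATG, bound by NRF1, a regulator of nuclear genes for mitochondria, was in 3 (4.48%) against 1.07% and 3.02%. The MYC-type E-box CACGTG was in 5 (7.46%) against 8.09% and 13.5%, and TATAAA was likewise in 5, against 15.7% and 7.91%. The median window held 21 CpGs, against 7 in all windows and 22 in well-expressed genes. A gene starting in the opposite direction within 1000 bases was found for 25 of 67 members (37.3%), against 12.3% of protein-coding and 24.1% of well-expressed genes. These are counts of letters and neighbours, and no test was made of them.

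The targeted genes and the tissues were checked first. Tet1 was 2.92 and 3.82 FPKM in DKO epiblasts against 4.77, 5.02 and 6.29 in WT, and 1.28 and 1.29 in DKO heads against 2.55 and 3.33 in WT; Tet2 was under 1 FPKM in every library. Kmt2b, listed under its older symbol Wbp7, was 0.308, 0.133 and 0.0349 FPKM in KO columns at E6.5, E8.5 and E9.5, against 0.701, 0.600 and 1.203 in WT. The deleted exons are not given in the sources used here, so these values check the labels only in part. All 8 epiblast markers were at 1 FPKM or more in every epiblast column, and 9 of 10 neural head markers in every head column. Of 10 visceral endoderm markers, 2 or 3 were at 1 FPKM or more in each epiblast column; their sum was 64.9 to 75.8 FPKM in WT epiblasts, 63.9 and 19.1 in DKO epiblasts, and 67.0 (WT) and 82.2 (KO) in the Kmt2b table. Apoa1, Afp, Amn, Cubn, Hnf4a and Sox17 were under 1 FPKM in all of these columns. The summed level of the 7 red blood cell markers in the tables, of 8 listed, was 377 FPKM in DKO head 1, with 3 at 1 FPKM or more, against 0.304 to 4.997 in the other heads of that table, and 15774 (WT) and 5871 (KO) at E9.5. Heart muscle markers summed to 197 FPKM in WT head 2, against 5.12 to 30.5 in the other 3 heads, with 7 and 3 to 6 of 8 at 1 FPKM or more, and to 2534 in the E9.5 KO column against 20.9 in WT, with 7 and 2 of 8. That KO column is named as embryo rather than head. Among the columns of the Tet1/2 table, the 3 for WT epiblasts match no sample listed for that set and were assigned to the Kmt2b set's WT epiblasts, so genotype and sample set cannot be told apart in the DKO epiblast comparison. In bulk RNA, fewer cells of a type and less RNA per cell cannot be told apart either.

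All 76 members were expressed in every column used. Their lowest value anywhere was 10.4 FPKM, for Mrpl41 in DKO epiblast 1, and their median mean level over the 9 libraries of the Tet1/2 table was 74.1 FPKM against 7.98 for the 11250 genes kept there (at least 1 FPKM in at least 2 libraries). So the filter on low values removed no member. Summed over the members the level was 7216 to 7787 FPKM per library, 1.57 to 1.69% of all FPKM. Large subunit members summed to 4776 to 5335 FPKM and small subunit members to 2231 to 2503.

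**Figure D1:**
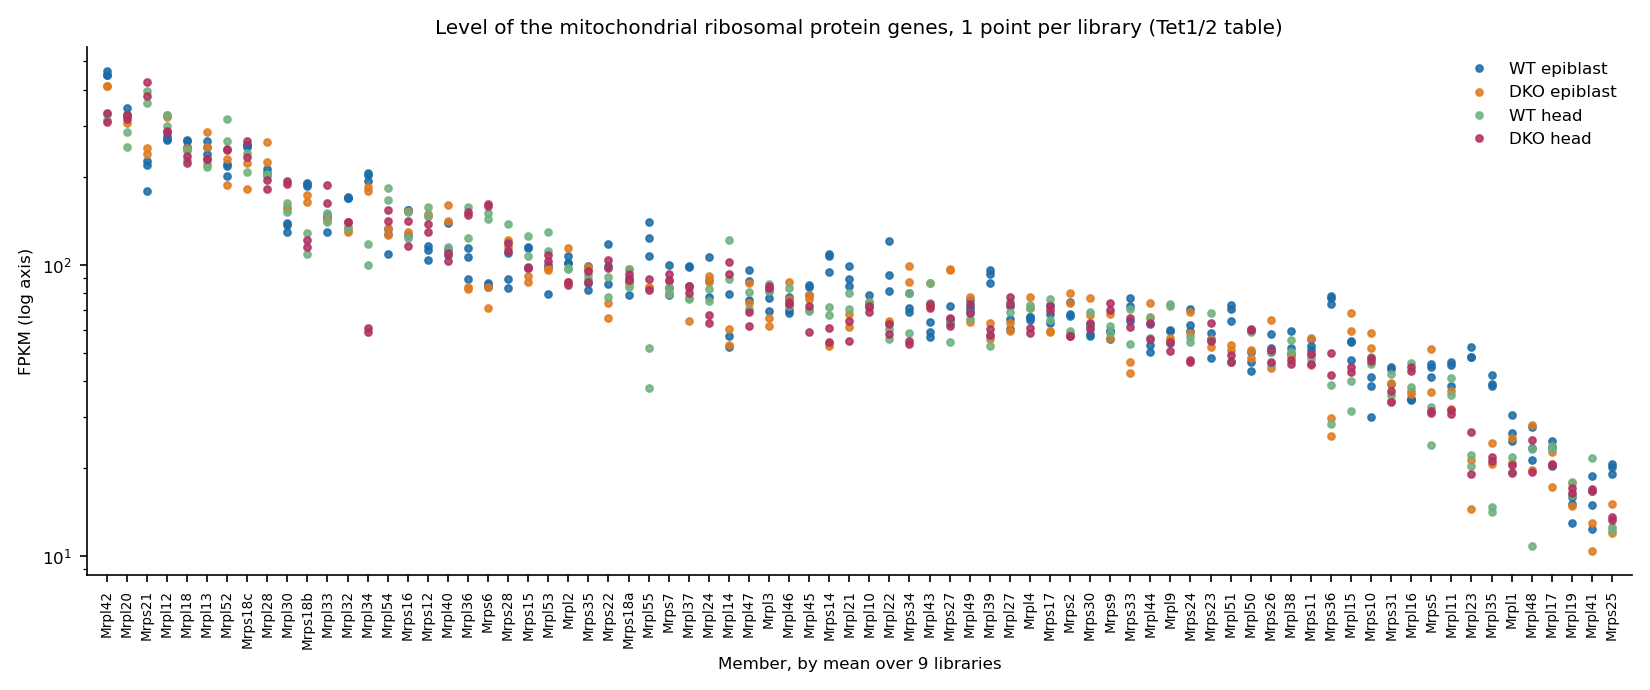
FPKM (log axis) of each of the 76 members (horizontal axis, ordered by mean) in the 9 libraries of the Tet1/2 table, 1 point per library and 1 colour per group. Mrpl42 stands highest with 311 to 464 FPKM and Mrps25 lowest with 12.01 to 20.7, and most members' points lie close together across groups.

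Mrpl42, a mitochondria-specific protein of the large subunit, had the highest mean. Its levels were 464, 451 and 451 FPKM in WT epiblasts, 411 in both DKO epiblasts, 314 and 330 in WT heads and 311 and 332 in DKO heads. The 2 stages did not overlap, and head genotypes did. Mrpl20, which joins the large subunit early in assembly of the bacterial ribosome, followed with 255 to 345 FPKM. Mrps21, a small subunit protein, ranged from 179.7 to 427 FPKM. Mrpl12 forms the stalk that contacts translation factors; it lay between 269 and 329 FPKM. Mrpl18 (224 to 269 FPKM) and Mrpl13 (218 to 286 FPKM) completed the 6 highest. The ranges of neighbours in this order overlapped, or, for Mrpl12 and Mrpl18, met at 269 FPKM.

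The lowest members were Mrps25 (12.01 to 20.7 FPKM), Mrpl41 (10.4 to 21.7), Mrpl19 (12.96 to 17.97) and Mrpl17 (17.3 to 24.9). FPKM are per length and can be set beside those of the highest members. The 3 homologues of one bacterial small subunit protein differed in level: Mrps18c was 182 to 266 FPKM, Mrps18b 109 to 191 and Mrps18a 78.7 to 97.1, in this order in all 9 libraries. Mrps30 was 56.8 to 77.0 FPKM.

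The members' spread was smaller, in the median, than that of other genes. Their median within-group SD was 0.11 on the log2(FPKM + 1) scale, against 0.19 for all genes kept and 0.14 for genes with a mean of 10 FPKM or more. A range of at least 2-fold over the 9 libraries was seen in 13 of 76 members (17.1%), against 57.0% of all genes kept and 42.3% of well-expressed genes. The widest log2 ranges were those of Mrpl55 (1.86), Mrpl34 (1.80), Mrpl23 (1.78), Mrps36 (1.56) and Mrpl35 (1.497). The narrowest log2 range was that of Mrpl10, a stalk base protein, at 0.19.

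**Figure D2:**
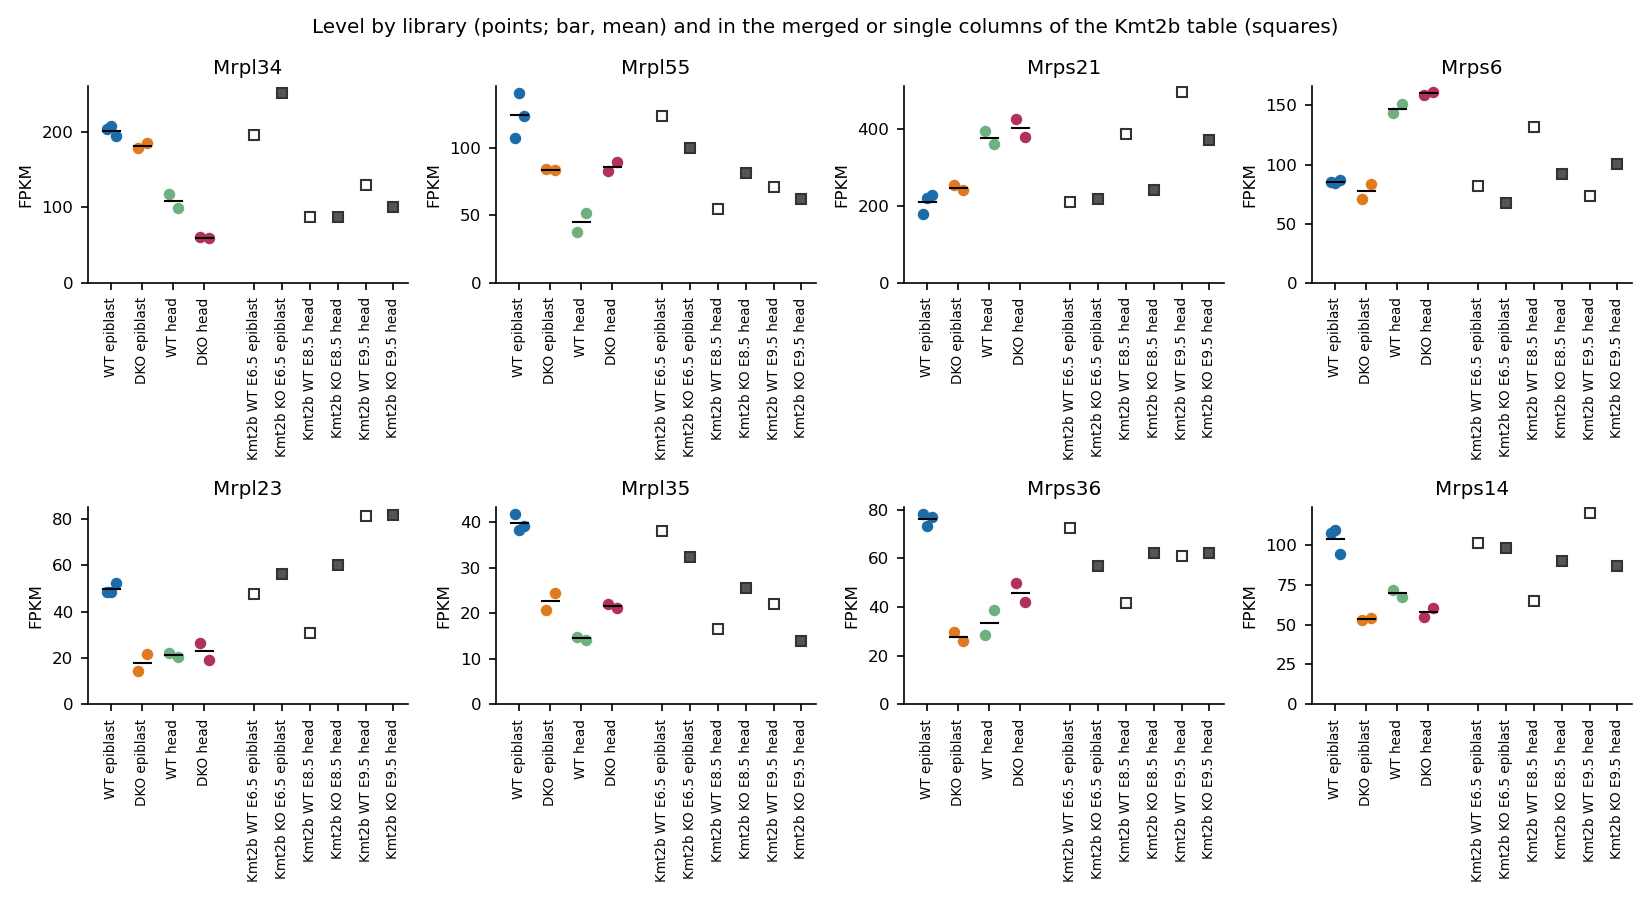
FPKM of 8 members by group: circles are the 9 libraries of the Tet1/2 table with the group mean as a bar, and squares are the merged or single columns of the Kmt2b table (open WT, filled KO), for which there is no error. Mrpl34 falls to 59.1 and 60.7 FPKM in DKO heads, while Mrpl55 is lowest in WT heads at 37.9 and 51.7 FPKM.

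Between the WT epiblast and the WT head, single members moved in both directions and their median stayed near that of all genes. With limma on log2(FPKM + 1) over all 11250 genes kept and a Benjamini-Hochberg adjusted p under 0.05, 31 of 76 members were called, against 37.0% of all genes and 41.2% of well-expressed genes: 14 higher in the head (background 19.9%) and 17 lower (17.1%). The members' median difference was -0.09, with 44 of 76 below 0, and that of all genes kept was 0.01. Without WT head replicate 1 fewer members were called, and fewer of all genes as well. With the replicate number as a block 7 were higher and 16 lower, and 30.6% of all genes were called.

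Mrps21 rose most. Its levels were 179.7, 220.3 and 228 FPKM in WT epiblasts and 395 and 361 in WT heads, so the groups did not overlap (log2 difference 0.86, SE 0.11, limma adjusted p = 0.00066). Mrps6, a small subunit protein with a bacterial homologue, was 85.4, 84.0 and 87.0 FPKM in epiblasts and 144 and 151 in heads (0.78, SE 0.08, limma adjusted p = 0.000289). The 3 epiblasts lay close together, and each head lay far above them. Mrpl14, which lies at the interface with the small subunit, rose by 0.75 (SE 0.19), and the mitochondria-specific Mrpl54 by 0.51 (SE 0.10). Mrps12, a protein of the decoding centre, Mrps28, Mrpl36 and Mrpl52 rose by 0.44 to 0.46. In the RefSeq annotation Mrps6 overlaps Slc5a3 and Mrpl14 overlaps Tmem63b, and whether counting used strand is not given in the sources used here, so reads of these pairs could have been mixed.

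Mrpl55, a mitochondria-specific large subunit protein, fell most. It was 107, 140.5 and 124 FPKM in WT epiblasts and 37.9 and 51.7 in WT heads (log2 difference -1.46, SE 0.15, limma adjusted p = 0.000213). Mrpl35, homologous to a small bacterial large subunit protein, was 41.8, 38.4 and 39.1 FPKM in epiblasts and 14.8 and 14.2 in heads (-1.40, SE 0.11, limma adjusted p = 5.19e-05). In both genes every head was below every epiblast. Mrpl34, another small large subunit protein, was 204, 208 and 194 FPKM against 118 and 99.7 (-0.89, SE 0.09, limma adjusted p = 0.000168). Mrpl23, which borders the exit of the peptide tunnel, fell by 1.18 (SE 0.18), Mrps36 by 1.17 (SE 0.14), Mrpl39 and Mrpl22, a protein of the tunnel wall, by 0.73 each, and Mrps18b by 0.67. Mrps18a and Mrps18c were not called. RefSeq names 1 pseudogene of Mrpl23 and 3 of Mrps36, so their levels are uncertain if reads were shared.

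The course of the DKO, from DKO epiblast to DKO head, shares no library with that of the WT. Of the 76 members 24 were called, against 49.8% of all genes and 54.1% of well-expressed genes. Higher were 12, against 23.7% of all and 25.7% of well-expressed genes, and lower 12, against 26.1% and 28.4%. The members' median was -0.06 and that of all genes 0.00. Without DKO head replicate 1, the library with the red cell markers, fewer members were called, and fewer of all genes as well. The part of those cells was not tested.

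Called the same way in both courses were 11 members, which is 35.5% of the 31 and 45.8% of the 24. Over all genes kept those shares were 52.2% and 38.7%, and over well-expressed genes 45.7% and 34.8%. The 11 were Mrps21, Mrps6, Mrpl14, Mrpl36, Mrpl30 and Mrpl50 higher, and Mrpl34, Mrpl42, Mrps18b, Mrps2 and Mrpl15 lower. Mrps6 was 70.9 and 83.7 FPKM in DKO epiblasts and 159 and 162 in DKO heads (log2 difference 1.05, SE 0.09, limma adjusted p = 9.11e-05). Mrpl34 was 179 and 185 FPKM against 60.7 and 59.1 (-1.59, SE 0.09, limma adjusted p = 1.56e-05), the steepest fall of the 76 in this course. Mrps34, a mitochondria-specific small subunit protein, fell by 0.77 (SE 0.15) in the DKO. Mrps36 was the 1 member called in opposite directions: 29.8 and 25.9 FPKM in DKO epiblasts and 49.9 and 41.9 in DKO heads (0.70, SE 0.16, limma adjusted p = 0.00656). Without DKO head replicate 1 its limma adjusted p was 0.0576.

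In the Kmt2b table, whose merged columns allow no test, the WT epiblast and E8.5 head columns differed by 2-fold or more in 3 of 76 members, against 14.2% of all genes, and all of these were lower (background 7.01%). They were Mrpl34 (196 to 86.7 FPKM, log2 difference -1.17), Mrpl55 (124 to 54.6, -1.16) and Mrpl35 (38.1 to 16.5, -1.16). The highest differences were those of Mrps21 (0.88), Mrpl14 (0.73) and Mrps6 (0.69). The WT epiblasts are the same samples as in the Tet1/2 table, and the heads are other samples. At 1.5-fold the count was 12, against 30.0% of all genes. From KO epiblast to KO head at E8.5, Mrpl34 (-1.52) and Mrps34 (-1.07) were lower by 2-fold or more, the only 2 members to pass it (background 13.8% either way, 6.87% lower); at 1.5-fold it was 9, against 31.5%. Here 63 of 76 members were lower in the head, with a median of -0.25 against 0.02 for all genes.

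**Figure D3:**
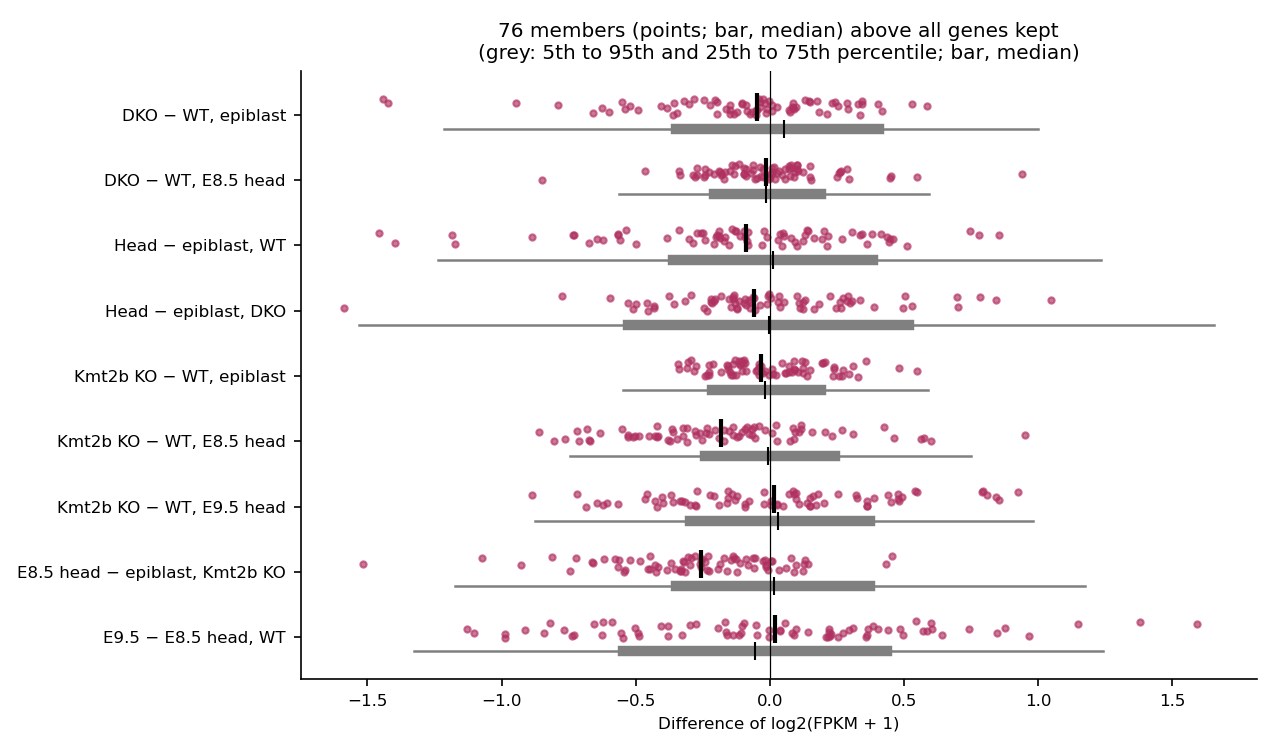
Differences of log2(FPKM + 1) in 9 comparisons: each point is 1 of the 76 members, with their median as a bar, and the grey lines below show the 5th to 95th and 25th to 75th percentiles and the median of all genes kept. The members' medians lie between -0.25 and 0.02, lowest in the 2 comparisons that hold the Kmt2b KO head at E8.5.

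The Tet1/2 DKO epiblast differed from the WT epiblast in 22 of 76 members, against 35.2% of all genes and 44.5% of well-expressed genes. Of these 7 (9.21%) were higher, against 20.1% of all and 24.2% of well-expressed genes. Lower were 15 (19.7%), against 15.2% of all and 20.3% of well-expressed genes. The members' median was -0.05 against 0.05 for all genes. Without DKO epiblast replicate 2 fewer members were called, and fewer of all genes as well. The 7 higher became 4 without WT epiblast replicate 3 and 3 with the replicate number as a block. Large subunit members gave 4 higher and 9 lower of 49, and small subunit members 3 and 5 of 26.

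Mrpl23 was 48.4, 48.2 and 52.4 FPKM in WT epiblasts and 14.5 and 21.5 in DKO epiblasts (log2 difference -1.44, SE 0.18, limma adjusted p = 0.00102). Mrps36 was 78.3, 73.2 and 77.0 FPKM against 29.8 and 25.9 (-1.42, SE 0.14, limma adjusted p = 0.000432). Mrps14, a small subunit protein with a bacterial homologue, was 107, 109 and 94.4 FPKM against 52.6 and 53.9 (-0.95, SE 0.09, limma adjusted p = 0.00043). In all 3 the highest DKO library was far below the lowest WT library. Mrpl35 fell by 0.79 (SE 0.11), Mrps33 by 0.66, Mrpl39 by 0.62, Mrpl22 by 0.60 and Mrpl55 by 0.55 (SE 0.15).

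On the higher side the differences were smaller. Mrps10 was 30.1, 41.3 and 38.4 FPKM in WT epiblasts and 51.8 and 58.5 in DKO epiblasts (log2 difference 0.59, SE 0.14, limma adjusted p = 0.012). Mrps27, a mitochondria-specific RNA-binding protein of the small subunit, rose by 0.53 (SE 0.10), Mrps12 by 0.42, Mrpl43 by 0.40, Mrps30 by 0.29, Mrpl12 by 0.25 and Mrpl30 by 0.21. The 8 markers of nascent mesoderm and primitive streak summed to 171 to 402 FPKM in WT epiblasts and to 30.4 and 34.2 in DKO epiblasts, with 6 to 7 and 5 of 8 at 1 FPKM or more. Epiblast markers summed to 1577 to 1657 FPKM in WT and to 2716 and 2426 in DKO epiblasts, with all 8 at 1 FPKM or more in each. The 7 extraembryonic ectoderm markers in the table, of 8 listed, summed to 24.5 to 28.1 FPKM in WT and to 13.98 and 17.7 in DKO epiblasts, with 1 or 2 at 1 FPKM or more. Elf5, Cdx2, Tfap2c, Wnt7b and Sox21 were under 1 FPKM in each of these libraries, so the sums rest mainly on Eomes and Bmp4. Eomes is also among the primitive streak markers, so the 2 sums are not separate. The part of these cell types in the differences was not tested.

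The cytosolic ribosome showed a larger shift in this comparison. Of 83 cytosolic ribosomal protein genes kept, 10 were higher and 59 lower in DKO epiblasts, with a median of -0.86; their median level was 194 to 225 FPKM in the 3 WT epiblasts, 84.4 and 95.4 in DKO epiblasts and 94.4 to 104 in all 4 heads. Of 80 genes for oxidative phosphorylation subunits 10 were higher and 27 lower, with a median of -0.21. Over all genes kept 20.1% were higher and 15.2% lower. Across the 9 libraries 12 of 76 mitochondrial members had r above 0.8 with the median log2 level of the cytosolic genes, among them Mrpl32 (0.98), Mrpl23 (0.97), Mrps25 (0.95), Mrpl39 (0.95), Mrps14 (0.94) and Mrps36 (0.88). Mrps12 had the lowest value (-0.87), and the median over the 76 was 0.28. These correlations describe 9 libraries that were normalized together, in which the 3 WT epiblasts stand apart from the other 6. The share of all genes with r above 0.8 was not computed, so the count of 12 has no background.

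In the E8.5 head the DKO and the WT differed in 2 of 76 members, against 1.42% of all genes and 2.14% of well-expressed genes. Higher was 1, against 0.676% of all and 0.991% of well-expressed genes, and lower 1, against 0.747% and 1.15%. The members' median was -0.01 and that of all genes -0.02. In WT heads Mrpl34 was 118 and 99.7 FPKM, and in DKO heads 60.7 and 59.1, with both DKO heads well below both WT heads (log2 difference -0.85, SE 0.09, limma adjusted p = 0.00396). The call was lost without DKO head replicate 2 (adjusted p = 0.0506) and held in the other 10 settings tried, with adjusted p up to 0.0486. The 2 WT heads had 37.9 and 51.7 FPKM of Mrpl55 and the 2 DKO heads 82.4 and 89.3 (0.94, SE 0.16, limma adjusted p = 0.0366). That call did not hold in 7 of 11 other settings, in which the limma adjusted p was 0.0523 to 0.196 and the difference 0.72 to 0.996. Of these, 3 left out WT head replicate 1, DKO head replicate 1 or DKO head replicate 2. The heart marker sums above differ between these heads, and their part was not tested.

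Next to Mrpl55, within 1000 bases and in the opposite direction, starts 2610507I01Rik, a gene looked at after the values of Mrpl55 were seen. In WT heads it was at 0.0288 and 0.0935 FPKM, with 1.90 and 2.04 in DKO heads, 1.06 to 2.44 in WT epiblasts and 1.19 and 2.05 in DKO epiblasts. The WT heads stood below all other libraries in both genes. For this neighbour the DKO head differed from the WT head by 1.49 (SE 0.27, limma adjusted p = 0.0421) and the WT head from the WT epiblast by -1.26 (SE 0.25, limma adjusted p = 0.00491). In the Kmt2b table it was 0.300 FPKM in the WT head at E8.5 and 1.73 in the KO head, and Mrpl55 was 54.6 and 81.2. At these low levels of the neighbour its ratios are imprecise.

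Whether the DKO difference itself changed with stage was tested as an interaction (DKO minus WT in the head, less the same in the epiblast). It was called in 20 of 76 members, against 26.4% of all genes and 35.8% of well-expressed genes. Higher were 13 (17.1%), against 10.9% of all and 15.1% of well-expressed genes. Lower were 7 (9.21%), against 15.5% and 20.8%. The 3 WT epiblasts enter this term as they do the epiblast comparison and the WT course. Leaving out WT epiblast replicate 3 gave 12 calls, against 20.9% of all genes. Without any 1 of the heads, fewer members and fewer of all genes were called. Mrps36 had the largest term (1.87, SE 0.21, limma adjusted p = 0.00144), with DKO differences of -1.42 in the epiblast and 0.45 (SE 0.16, not called) in the head. For Mrpl55 the differences were -0.55 and 0.94, for Mrpl35 -0.79 and 0.55, and for Mrpl23 -1.44 and 0.08. Mrpl34 had the largest term on the lower side (-0.70, SE 0.13, limma adjusted p = 0.00713), with differences of -0.15 and -0.85.

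**Figure D4:**
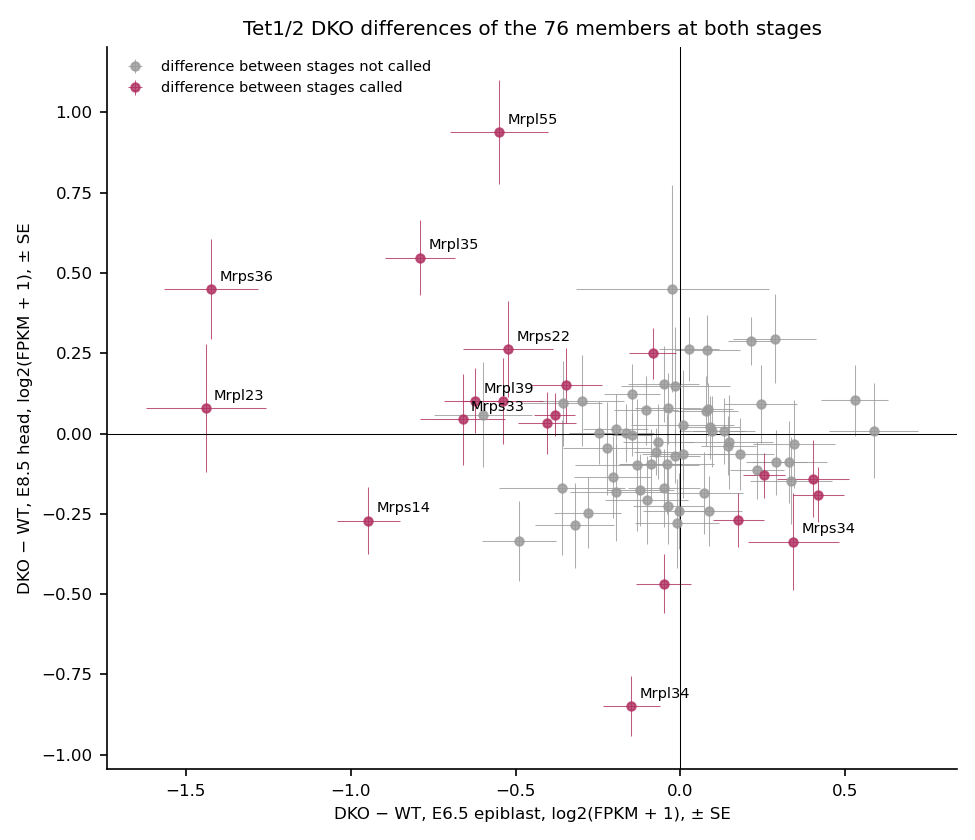
Difference between DKO and WT on the log2(FPKM + 1) scale in the E6.5 epiblast (horizontal axis) and the E8.5 head (vertical axis) for the 76 members, with SE bars; the 20 members called for the interaction are in colour. Most points lie near 0 on both axes, Mrpl23 and Mrps36 lie far left, Mrpl55 at the top and Mrpl34 at the bottom.

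Loss of Kmt2b gave small differences in the epiblast. None of the 76 members reached 2-fold (0, against 1.71% of all genes) or 1.5-fold (0, against 9.23%), and their median was -0.03 with -0.02 for all genes. The largest were Mrps34 (71.0 FPKM in the WT, 104 in the KO and a log2 difference of 0.55), Mrps5 (41.9 and 58.9, 0.48), Mrpl34 (196 and 251, 0.36), Mrps36 (72.3 and 56.9, -0.34) and Mrps18c (256 and 202, -0.34). In 43 of 76 members the difference exceeded the SD between the WT epiblast libraries (median absolute difference 0.13, median SD 0.10). The same share over all genes was not computed, so this count has no background. With no KO replicate column, none of these differences has a test.

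In the E8.5 head the KO column was lower in 55 of 76 members, with a median of -0.18 against -0.01 for all genes. No member reached 2-fold (0, against 4.74% of all genes), and 11 reached 1.5-fold, against 16.3%. The members summed to 7238 FPKM in WT and 6010 in KO, 1.60 and 1.33% of all FPKM, which is below every other column of either table by share. Large subunit members summed to 4825 and 4043 FPKM and small subunit members to 2372 and 1905, and 35 of 49 and 20 of 26 were lower. Lowest were Mrpl54 (163 and 89.3 FPKM, log2 difference -0.86), Mrps10 (44.0 and 24.8, -0.80), Mrpl52 (287 and 169, -0.76), Mrps12 (145 and 87.7, -0.72), Mrpl27 (80.0 and 48.5, -0.71) and Mrps21 (387 and 241, -0.68). Several of these, Mrpl54, Mrpl52, Mrps12 and Mrps21, are members called higher in the WT course of the Tet1/2 table. There 14 of 76 members were called higher (background 19.9%), and no test was made of this overlap.

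On the other side Mrpl23 was at 30.6 FPKM in the WT column and 60.0 in the KO column (log2 difference 0.95), and Mrpl35 (0.60), Mrps36 (0.58), Mrpl55 (0.56), Mrps14 (0.46) and Mrps5 (0.42) were also higher. All 6 are among those lower in WT heads than in WT epiblasts in the Tet1/2 table, whose heads are other samples. In that course 44 of 76 members had a difference below 0, and 17 were called lower. The genes were picked by size, and no test was made of this overlap. The WT head columns of both tables differ by -0.33 (Mrpl34) to 0.50 (Mrpl23) among members, which shows how far merged or averaged WT heads can lie apart. Set against the WT heads of the Tet1/2 table, Mrpl23 was higher by 1.45 in KO heads. Cytosolic ribosomal protein genes had a median difference of 0.58, with 16 of 83 higher by 2-fold or more and 0 lower, and oxidative phosphorylation genes one of -0.01. Red blood cell markers summed to 98.4 FPKM in WT and 5.07 in KO heads (3 and 2 of 7 at 1 FPKM or more), and neural head markers to 151 and 95.8 (9 of 10 in both). Epiblast markers summed to 68.1 and 144.6 FPKM (6 and 7 of 8) and visceral endoderm markers to 62.7 and 130.2 (3 and 2 of 10). Of the latter Ttr, Apoa1, Afp, Amn, Cubn, Hnf4a and Sox17 were under 1 FPKM in both columns, and Rbp4 in the KO column. The KO sum of that list therefore came almost wholly from Apoe and Foxa2. The part of these cell types was not tested.

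**Figure D5:**
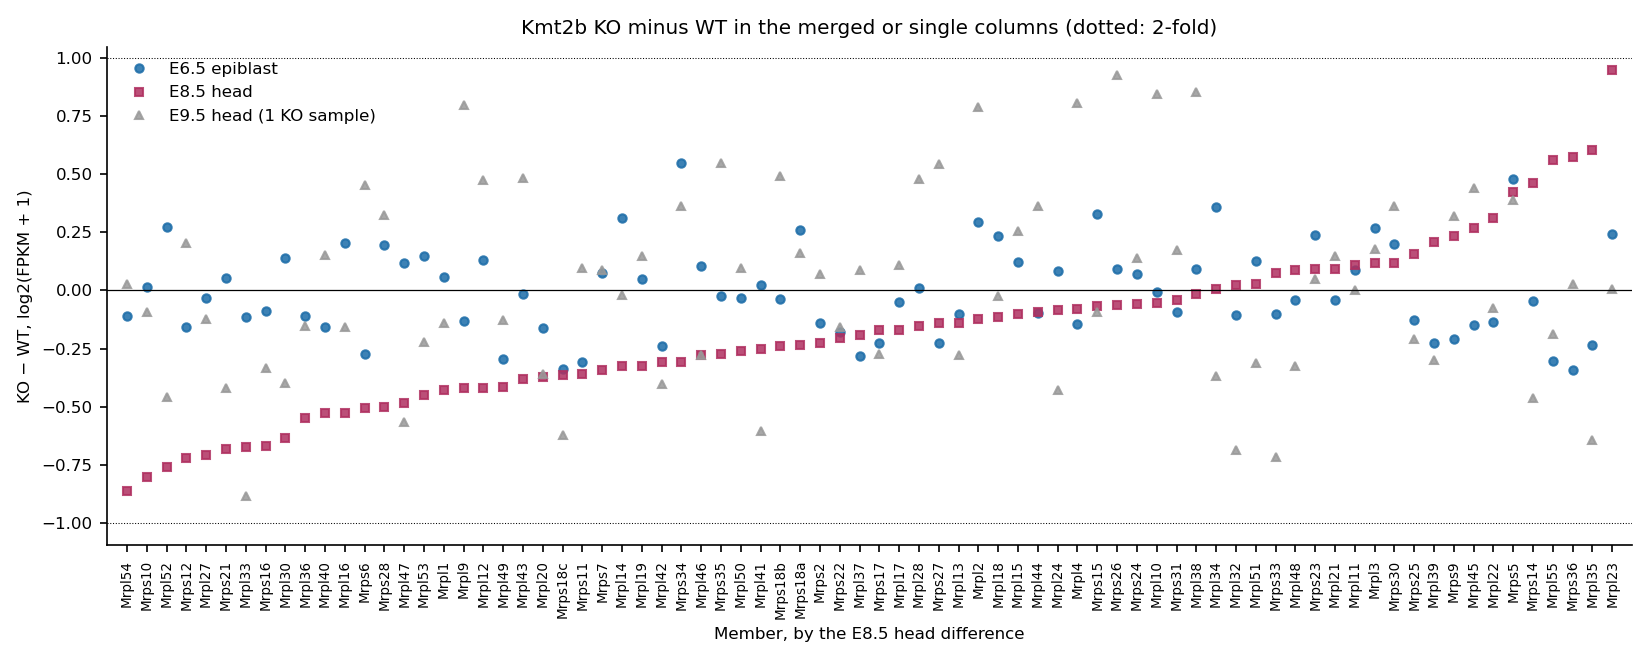
Difference between KO and WT columns of the Kmt2b table on the log2(FPKM + 1) scale for each member, ordered by the E8.5 head; symbols mark the stage and dotted lines 2-fold. At E8.5 (squares) 55 of 76 members lie below 0 and none reaches 2-fold, and the E6.5 and E9.5 points do not follow that order.

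At E9.5, with 1 KO sample, no member reached 2-fold (0, against 8.26% of all genes) and 12 reached 1.5-fold, against 25.7%. The median was 0.02, with 40 higher and 36 lower. Mrps26 (0.93), Mrpl38 (0.86), Mrpl10 (0.84), Mrpl4 (0.81), Mrpl9 (0.80) and Mrpl2 (0.79) were higher in KO, and Mrpl33 (-0.89), Mrps33 (-0.72), Mrpl32 (-0.69) and Mrpl35 (-0.64) lower. The E9.5 columns were not normalized with the others or with each other, and the heart marker sums given above differ between them; the part of either in these differences was not tested. From E8.5 to E9.5, in WT heads, 5 of 76 members differed by 2-fold or more, against 19.1% of all genes, and 25 by 1.5-fold or more, against 43.3%. Mrps33 (57.3 to 174 FPKM, 1.59), Mrpl23 (30.6 to 81.1, 1.38) and Mrpl41 (17.2 to 39.4, 1.15) were higher, and Mrps34 (61.1 to 27.4, -1.13) and Mrpl38 (-1.10) lower. With quantile normalization neither lower member reached 2-fold (-0.98 and -0.95). Cytosolic ribosomal protein genes had a median of 0.93 in that comparison.

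Over the 4 comparisons of groups in the Tet1/2 table, 28 members were called in none (36.8%), 21 in 1 (27.6%), 23 in 2 (30.3%) and 4 in 3 (5.3%). Over all genes kept the shares were 31.2%, 22.8%, 37.9% and 7.9%. For the lists that follow, 20.1% of all genes kept were called higher and 15.2% lower in the DKO epiblast. The shares were 0.676% and 0.747% in the DKO head, 19.9% and 17.1% in the WT course and 23.7% and 26.1% in the DKO course. Among the other parts of the mitochondrial translation system, 8 genes were listed: mitoribosome proteins with other names and Oxa1l, which is not a ribosomal protein. In the DKO epiblast they gave 0 higher and 1 lower, Oxa1l itself (log2 difference -0.45). In the DKO head they gave 0 lower and 2 higher. The latter were Gadd45gip1, which also joins the large subunit (11.6 to 22.2 FPKM, log2 difference 0.89, limma adjusted p = 0.0383), and Ptcd3, an RNA-binding protein of the small subunit (63.6 to 94.9 FPKM, 0.57, limma adjusted p = 0.0277). In the WT course Gadd45gip1 fell by 1.78 (SE 0.14), from 42.2 to 11.6 FPKM, and in the DKO course by 1.06 (SE 0.16).

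Of 23 genes for mitoribosome assembly and rRNA modification, 5 were higher and 3 lower in the DKO epiblast, 4 higher and 2 lower in the WT course, 2 higher and 6 lower in the DKO course, and 1 higher and 0 lower in the DKO head. That gene, Trmt61b, a methyltransferase of mitochondrial RNA, was 6.3 FPKM in WT and 19.3 in DKO heads on average (log2 difference 1.47, SE 0.16, limma adjusted p = 0.00339), and 7.70 in the WT and 16.9 in the Kmt2b KO head column at E8.5 (1.04). Rbfa, a factor of small subunit assembly, rose by 1.23 in the DKO epiblast and by 0.97 in the WT course, and in the Kmt2b KO head it was lower by 2-fold or more (19.3 to 7.31 FPKM, -1.29).

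Of 14 translation factors and mRNA stability factors, 1 was higher and 3 lower in the DKO epiblast, with Tufm, the elongation factor that brings tRNA to the ribosome, down from 35.6 to 15.8 FPKM (log2 difference -1.15, SE 0.18), and 0 higher and 4 lower in the WT course. Of 17 mitochondrial aminoacyl-tRNA synthetases, 3 were higher and 1 lower in the DKO epiblast, 2 and 2 in the WT course and 0 and 5 in the DKO course. Lars2, the leucine enzyme, rose by 3.03 in the DKO epiblast and by 2.62 in the WT course, from 47.1 FPKM in WT epiblasts to 369.8 and 276.5. The median difference over the 17 was 0.09 and 0.04. Both comparisons use the WT epiblasts, which come from another sample set, and its part was not tested. Of 10 genes of mitochondrial DNA transcription and replication, 2 were higher and 1 lower in the DKO epiblast, the latter Ssbp1, the single-stranded DNA binding protein (106 to 47.3 FPKM, -1.15). Of 9 kept of 12 nuclear regulators, 4 were higher and 0 lower in the DKO epiblast: Pprc1, a coactivator of nuclear genes for mitochondria (12.8 to 38.4 FPKM, 1.52, SE 0.15), Hcfc1 (0.69), Nrf1 (0.47) and Mycn (0.38). In the DKO course 0 were higher and 4 lower. Over all genes kept, 20.1% were higher and 15.2% lower in the DKO epiblast, and 23.7% and 26.1% in the DKO course. The lists are small, and none was tested as a set.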

How the data were processed

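The expression values are FPKM deposited by the authors; TopHat2 2.0.11, Cufflinks 2.0.2 and the mm9 build are named in the submitters' processing notes. Sorted values of the 9 Tet1/2 columns were equal within 0.208%, and those of the 4 E6.5 and E8.5 Kmt2b columns within 0.507%. The E9.5 columns deviated by 72.3% and 41.1%. Within each of the first 2 sets the columns therefore share 1 distribution, beyond scaling to mapped fragments. Equal values of a gene in 2 libraries, such as 411 FPKM for Mrpl42 in both DKO epiblasts, can reflect equal rank. FPKM give no read counts, so depth and its precision are unknown; total FPKM per column was 451779 to 505676. Genes with 1 FPKM or more in 2 or more columns were kept (11250 and 11059), 27 date-like names and 2 columns of no listed sample were left out, and log2(FPKM + 1) was used, which understates changes of low genes. One limma 3.58.1 fit (R 4.3.3, eBayes with trend, two-sided, Benjamini-Hochberg over all genes kept) covered the 9 libraries and was tested on simulated data. Replicates are not said to be separate animals, so the p-values reflect the spread among these samples alone, which may be technical. Merged columns allowed no test, and differences of 2-fold or more on the log2(FPKM + 1) scale were counted. Members, lists and rules were chosen with earlier results of these data known. Named were the 6 highest and 4 lowest members, up to 8 called members per direction (6 by size where untested), Mrps18a, Mrps18b, Mrps18c, Mrpl12, Mrps30 and Mrps36, and up to 4 called genes per list. Mrpl10, with the narrowest range, the widest-ranging members, those most like the cytosolic genes and 2610507I01Rik were named after their values were seen. The 4 members with sequences shown were picked by no fixed rule. Alternatives covered pseudocount, filter, scaling, replicate block, trend, libraries fitted and each library left out. The methylation files and chromatin samples were not used here.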

Additional observations from a re-analysis of the deposited data

Results flagged for a closer look

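For 20 members the DKO difference was tested to differ between stages (limma interaction term, adjusted p under 0.05; head difference minus epiblast difference on the log2(FPKM + 1) scale), which is 26.3% of the members, against 26.4% of all genes kept. Of these, 13 had a higher difference in the head: Mrps36 (1.87), Mrpl23 (1.52), Mrpl55 (1.49), Mrpl35 (1.34), Mrps22 (0.79), Mrpl39 (0.73), Mrps33 (0.70), Mrps14 (0.68), Mrps25 (0.64), Mrps18c (0.50), Mrpl32 (0.44), Mrpl51 (0.44) and Mrpl20 (0.33). The 7 with a lower difference in the head were Mrpl34 (-0.70), Mrps34 (-0.68), Mrps12 (-0.61), Mrpl43 (-0.54), Mrpl4 (-0.45), Mrpl9 (-0.42) and Mrpl12 (-0.38). The WT epiblasts come from another sample set than the other 6 libraries, which cannot be told apart from genotype and stage here.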

How the results depend on the processing

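Other pseudocounts, no filter on low values, equal medians and quantile normalization left every total count of members within 1.5 times the reported one, but not every count by direction: the DKO head had 1 higher and 2 lower with a pseudocount of 5 and 0 and 2 without a filter, and WT E9.5 against E8.5 had 3 and 1 with a pseudocount of 5 and 4 and 0 with quantile normalization. No called member changed direction among the alternatives run. Whether the replicate numbers pair the samples is not settled. Of 12 same-numbered pairs, 3 had correlated deviations over 0.1 (-0.01 to 0.193). The highest value, 0.193, was that of DKO epiblast and DKO head under both numbers. In groups of 2 libraries the deviations mirror each other, so the 12 pairs are not independent. With the replicate block the DKO head count went from 2 to 1 and the interaction count from 20 to 10, and the other comparisons kept their totals within 1.5 times, though the higher members went from 7 to 3 in the DKO epiblast and from 14 to 7 in the WT course. Without a trend in eBayes these counts were 1 and 10 as well, and the higher members in the DKO epiblast were 4, and with the 4 head libraries only the DKO head count was 1. Leaving out 1 library at a time gave 14 to 22 members in the DKO epiblast, 0 to 2 in the DKO head, 20 to 30 in the WT course, 9 to 24 in the DKO course and 8 to 21 for the interaction, where the lower members went from 7 to between 2 and 5 without WT epiblast replicate 1 or 3, DKO epiblast replicate 2 or any head; a group left with 1 library is assumed to vary like the others. The DKO head count of 0 was without DKO head replicate 2, and it was 1 without WT head replicate 1 or DKO head replicate 1. At 1.5-fold in place of 2-fold, the Kmt2b KO counts were 11 at E8.5 and 12 at E9.5, those of the WT and KO courses to E8.5 were 12 and 9, and that of WT E9.5 against E8.5 was 25. Against the WT heads of the Tet1/2 table, 1 member (Mrpl23) reached 2-fold in the Kmt2b KO head at E8.5. The share of all genes called shifted between these settings as well. The cause of these shifts was not tested. Depth is unknown, so no limit from counting can be given.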
